A study of Mus musculus with 10 samples.

Results

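The genes described here are 44 mouse genes of the cell division cycle and of proliferation. They were taken by symbol, matched to their Ensembl gene IDs, and kept if their deposited value was at least 1 in at least 2 libraries. All 44 met that rule, out of 15712 genes that met it in the whole matrix of 45195 IDs. They fall into 6 roles: 9 genes of the MCM helicase and origin licensing, 5 of DNA synthesis and nucleotide supply, 7 G1 and S phase regulators, 9 G2 and M phase regulators, 9 genes of the centromere, the spindle checkpoint and the chromosomal passenger complex, and 5 chromosome and spindle proteins.

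RNA was sequenced from neurites, the processes that neurons extend, of cortical neurons taken from E16.5 mouse embryos and kept 8 days in vitro. The neurons grew on a membrane with pores of 3 µm, so that neurites reached the underside while cell bodies stayed on top, where they were wiped away before lysis. Wild-type neurons (C57BL/6, 3 naive and 3 injured libraries) were compared with neurons of Cpeb1 flox/flox mice on the same background (2 naive and 2 injured libraries), called knockout below. All groups, wild type included, received AAV2 with Cre under the CAG promoter at plating, which is active in all cell types and not in neurons alone. In injured cultures the underside was scraped on day 7, and the neurites present 24 hours later were lysed. Whether the replicates came from separate cultures is not stated in the labels, and p-values here cover the spread among these libraries alone, which may be technical.

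Proliferating cells license replication origins by loading the MCM helicase in G1, copy DNA in S phase with enzymes that supply nucleotides, and divide in M phase under cyclin-dependent kinases, the anaphase-promoting complex and the spindle checkpoint. Most of these genes are transcribed in waves set by E2F factors at the start of S phase and by the DREAM and B-MYB complexes in G2. Postmitotic neurons have left the cycle, while radial glia, other progenitors and glial cells of the embryonic cortex still divide. CPEB proteins bind a short U-rich element in 3' untranslated regions, and cyclin B1 mRNA in maturing frog oocytes is the textbook target.

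The depth of the 10 libraries was estimated at 21.1 to 27.9 (in 1e6 fragments) from the steps between low values of genes with a single transcript, with a fragment length of 240 to 300 nt chosen per library to match the steps best. Cpeb1, the targeted gene, had deposited values of 7.16, 5.96 and 5.86 (naive) and 1.65, 13.8 and 22.6 (injured) in wild type and 5.97 and 0.356 (naive) and 1.14 and 3.15 (injured) in the knockout. Its knockout naive replicate 1 lay within the wild-type naive range, and its wild-type injured replicate 1 lay within the range of the knockout libraries. Which exons Cre removes is not given in the sources used here, so these gene-level values are no firm check of the labels, and genotypes are given below as labelled. Wild-type injured replicate 3 stood apart, correlating least with the rest (mean 0.839) and holding the highest value of the 10 libraries in 29 of the 44 cell cycle genes, 65.9% of them against 22.5% of all genes tested. Neuron markers were present in every library, the sum of 12 genes ranging from 2816 to 3735 in wild-type injured to 4799.6 to 5235 in knockout naive libraries.

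Cell cycle transcripts were measurable in these neurite libraries at low to middle levels. The values are on the FPKM scale, which is per transcript length, so levels can be set side by side. In wild-type naive libraries 20 of the 44 genes had a mean of at least 10, and the genes ranked between the 18.3 and the 96.5 percentile of all tested genes, with a median of 55.2. Cdk4, the kinase partner of D-type cyclins, was the most abundant at 187 ± 0.215 (SD, n = 3), followed by Pcna, the sliding clamp of DNA polymerases, at 69.3 ± 12.02 (SD, n = 3) and Ccnd2, cyclin D2, at 65.7 ± 9.40 (SD, n = 3). The ranges of Pcna and Ccnd2 overlapped, and both lay below Cdk4 in all 3 libraries. Cdc6, a loading factor for MCM, was the lowest at 1.18 ± 1.77 (SD, n = 3), and Mki67, the chromosome coat protein Ki-67 used as a marker of proliferation, stood at 1.63 ± 1.55 (SD, n = 3), with overlapping ranges. Of the 44 genes 42 were above 0 in all 10 libraries. The exceptions were Cdc6, listed at 0 in wild-type naive replicate 3, and Bub1, a checkpoint kinase, listed at 0 in wild-type injured replicates 1 and 2 and knockout naive replicate 2.

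**Figure D1:**
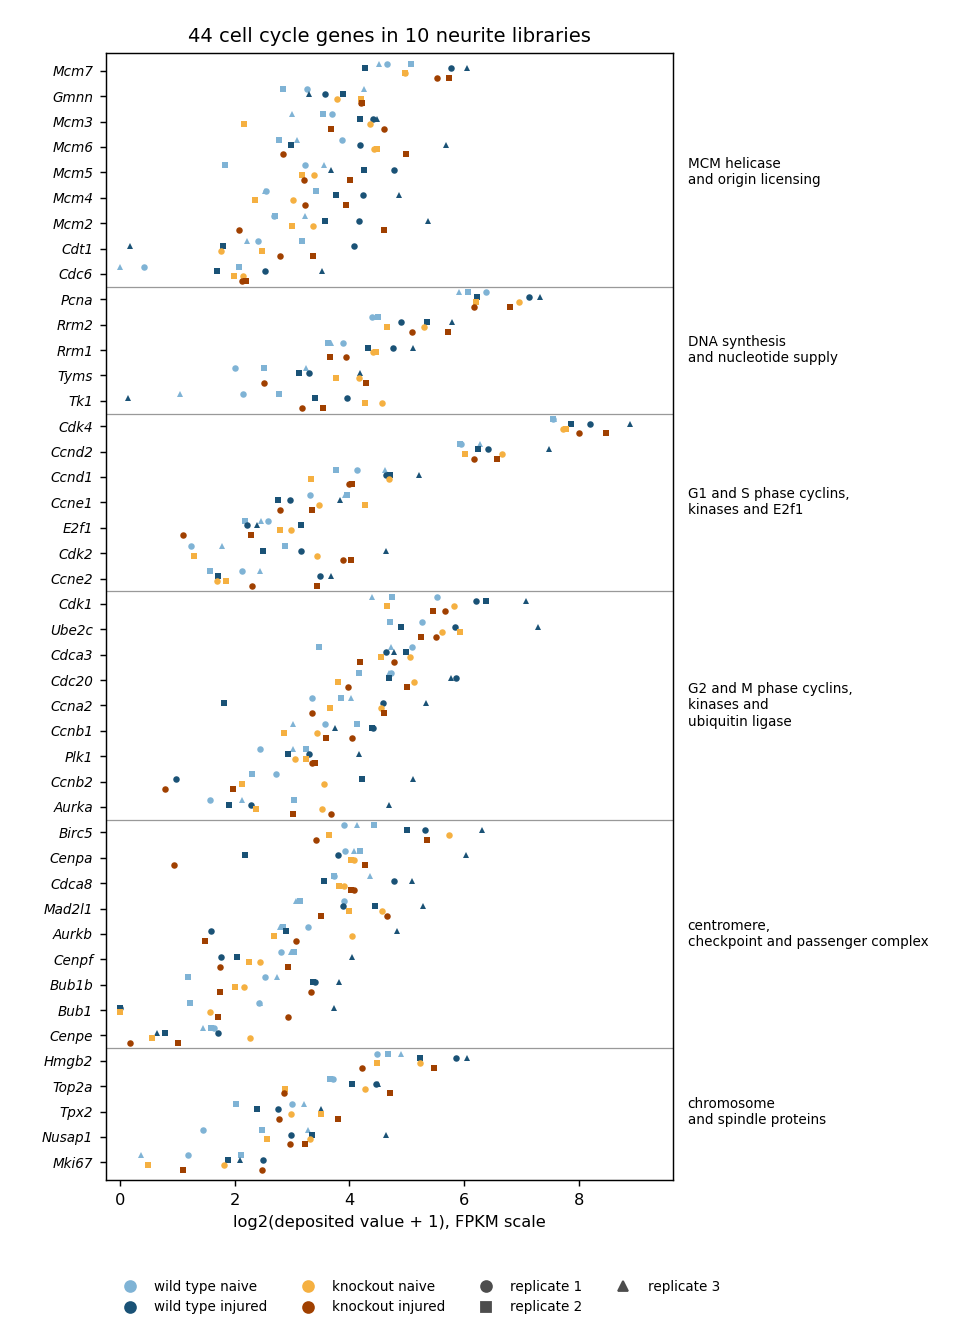
Deposited value of each of the 44 genes in each of the 10 libraries, as log2(value + 1) on the FPKM scale; genes are grouped by role and ordered within a role by level, colour gives the group and marker shape the replicate. The triangles of wild-type injured replicate 3 lie farthest right in 29 of the 44 genes.

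The first comparison asked how injury changed these genes in wild-type neurites. Of the 44 genes 38 had a higher group mean on the log2 scale after injury, and the median log2 fold change was 0.76, against 8015 of 15712 genes and a median of 0.009 over all tested genes. No single gene passed the test: 0 of 44 had an adjusted p under 0.05 by limma with Benjamini-Hochberg adjustment, where 0.948% of all tested genes did. At an unadjusted p under 0.05, 14 genes were higher and 0 lower, 31.8% of the 44 higher against 7.66% of all tested genes higher and 6.24% lower. The naive and injured values did not overlap in 13 of the 44, each of them higher after injury, while 9.78% of all tested genes were higher and 8.02% lower without overlap. Without wild-type injured replicate 3 the median was 0.52, 35 genes were above 0, and 6 were higher and 1 lower at an unadjusted p under 0.05. Those 7 are 15.9% of the 44, beside 12.1% of all genes tested in that fit, where with all libraries the shares in either direction were 31.8% and 13.9%. More dividing cells, more RNA per cell and a larger part of glial, progenitor or nuclear RNA cannot be told apart in neurite RNA.

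**Figure D2:**
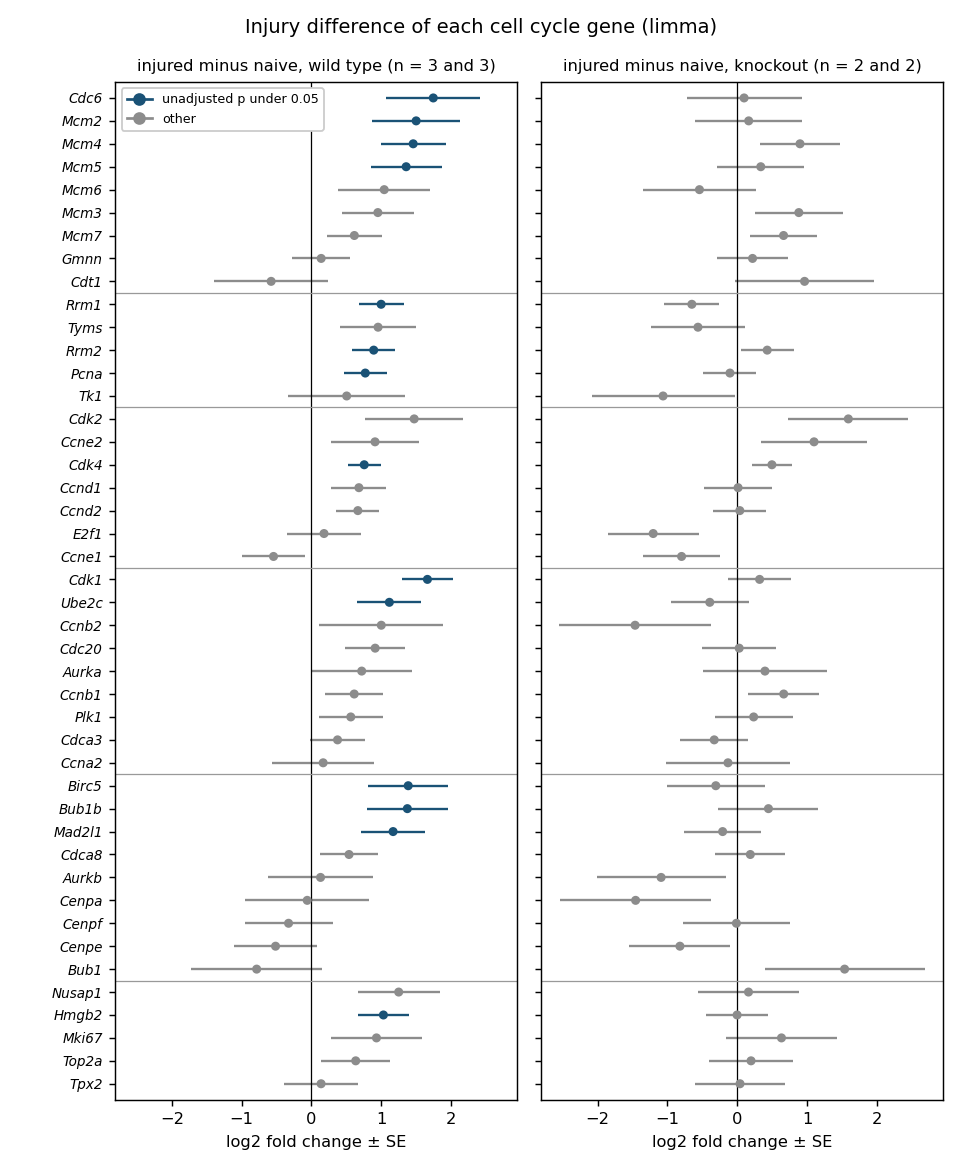
Log2 fold change on the log2(value + 1) scale (injured minus naive, point) with its standard error (line) for each of the 44 genes in wild type (left) and knockout (right), from limma. In wild type 38 points lie to the right of 0 and 14 have an unadjusted p under 0.05; in the knockout 26 lie to the right of 0 and none has an unadjusted p under 0.05.

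Among the 9 genes of the MCM helicase and origin licensing, 8 had a positive log2 fold change after injury in wild type, with a median of 1.04, and 4 had an unadjusted p under 0.05. Mcm2, Mcm4, Mcm5, Mcm6 and Mcm7, with Mcm3, encode the 6 subunits of the ring that unwinds DNA. Mcm4 stood at 4.81, 9.72 and 4.79 (naive) and 17.9, 12.6 and 28.1 (injured) in wild type and at 7.05 and 4.12 (naive) and 8.36 and 14.3 (injured) in the knockout. The groups did not overlap in either genotype, and the injury log2 fold change was 1.46 ± 0.46 (SE; adjusted p = 0.192, limma) in wild type. Mcm5 stood at 8.38, 2.57 and 10.8 (naive) and 26.4, 17.99 and 11.8 (injured) in wild type and at 9.41 and 8.01 (naive) and 8.28 and 15.1 (injured) in the knockout. Its wild-type groups did not overlap, with a log2 fold change of 1.36 ± 0.51 (SE; adjusted p = 0.264, limma). Mcm2 stood at 5.40, 5.52 and 8.34 (naive) and 16.9, 10.9 and 40.5 (injured) in wild type and at 9.26 and 6.98 (naive) and 3.23 and 23.3 (injured) in the knockout. The knockout injured pair was split, 1 library below and 1 above all wild-type naive values, while the 3 wild-type injured libraries were all above them, for a log2 fold change of 1.50 ± 0.63 (SE; adjusted p = 0.314, limma). Cdc6 was low, at 0.332, 3.22 and 0 (naive) and 4.75, 2.22 and 10.4 (injured) in wild type and at 3.43 and 2.94 (naive) and 3.39 and 3.56 (injured) in the knockout. Its wild-type ranges overlapped, and the log2 fold change was 1.75 ± 0.67 (SE; adjusted p = 0.276, limma).

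Mcm7 was the most abundant of the licensing genes, at 24.3, 32.6 and 21.9 (naive) and 53.5, 18.3 and 65.4 (injured) in wild type and at 30.2 and 30.2 (naive) and 45.0 and 52.3 (injured) in the knockout. Wild-type injured replicate 2 was below all 3 naive libraries and the other two injured libraries were above them. Mcm6 stood at 13.6, 5.83 and 7.43 (naive) and 17.1, 6.89 and 50.3 (injured) in wild type and at 20.6 and 21.2 (naive) and 6.17 and 30.6 (injured) in the knockout. Here wild-type injured replicate 2 lay within the naive range and replicate 3 was the highest library. Mcm3 was higher in all 3 wild-type injured than in all 3 wild-type naive libraries, with a log2 fold change of 0.95. Gmnn, geminin, the inhibitor of licensing, had a log2 fold change of 0.14, and Cdt1, the loading factor that geminin binds, had -0.58. Cdt1 was the only gene of this role below 0, and its 3 wild-type injured values of 15.98, 2.49 and 0.123 spanned all its naive values of 4.30, 7.99 and 3.63.

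All 5 genes of DNA synthesis and nucleotide supply had positive log2 fold changes after injury in wild type, with a median of 0.89, and 3 of them an unadjusted p under 0.05. Rrm1 and Rrm2, the large and small subunits of ribonucleotide reductase, make the deoxynucleotides for DNA. Rrm1 stood at 13.8, 11.4 and 11.8 in wild-type naive and 26.0, 19.0 and 33.6 in wild-type injured libraries, with a log2 fold change of 1.00 ± 0.32 (SE; adjusted p = 0.193, limma). In the knockout it stood at 20.4 and 21.1 in naive and 14.3 and 11.6 in injured libraries, so the groups did not overlap in either genotype and the order was opposite. Rrm2 stood at 20.1, 21.6 and 21.3 (naive) and 28.8, 40.0 and 54.5 (injured) in wild type and at 38.6 and 24.0 (naive) and 33.2 and 51.7 (injured) in the knockout. The 3 wild-type naive values of Rrm2 lay close together and all 3 injured values were above them, with a log2 fold change of 0.89 ± 0.31 (SE; adjusted p = 0.231, limma). Pcna stood at 82.7, 65.7 and 59.4 (naive) and 139, 73.7 and 159 (injured) in wild type and at 123 and 73.1 (naive) and 71.1 and 109.8 (injured) in the knockout. Wild-type injured replicate 2 lay within the naive range of Pcna, and the log2 fold change was 0.77 ± 0.31 (SE; adjusted p = 0.293, limma). Tyms and Tk1, thymidylate synthase and thymidine kinase, which make dTMP, had log2 fold changes of 0.95 and 0.50 with overlapping groups.

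In the 7 G1 and S phase regulators the median log2 fold change was 0.68, 6 genes were above 0 and Cdk4 alone had an unadjusted p under 0.05. Cdk4 stood at 187, 187 and 188 (naive) and 291, 231 and 475 (injured) in wild type and at 209.7 and 218 (naive) and 257 and 356 (injured) in the knockout. The wild-type naive values lay close together and every injured value of either genotype was above every naive one, with a log2 fold change of 0.76 ± 0.23 (SE; adjusted p = 0.184, limma) in wild type. Without wild-type injured replicate 2 the adjusted p of Cdk4 was 0.0485. Exons of Tspan31 on the opposite strand share 19.7% of the exon bases of Cdk4, and reads within those shared bases cannot be told apart in libraries without strand. Ccnd2 stood at 60.5, 60.1 and 76.6 (naive) and 84.7, 74.9 and 178 (injured) in wild type and at 99.8 and 63.5 (naive) and 71.2 and 93.9 (injured) in the knockout. Of its wild-type injured libraries only replicate 3 was far above the naive range, and replicate 2 lay within it. Ccnd1, cyclin D1, had a log2 fold change of 0.68 without overlap in wild type, and shares 23.4% of its exon bases with LTO1 on the opposite strand. Cdk2 and its partners cyclin E2 (Ccne2) and cyclin E1 (Ccne1), which act at S phase entry, had log2 fold changes of 1.47, 0.91 and -0.54, and E2f1, the transcription factor, had 0.18, all with overlapping groups.

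All 9 G2 and M phase regulators had positive log2 fold changes in wild type, with a median of 0.72 and 2 at an unadjusted p under 0.05. Cdk1, the kinase that drives entry into mitosis, came nearest to the threshold of all 44 genes. It stood at 45.3, 25.9 and 20.1 (naive) and 72.8, 82.0 and 135 (injured) in wild type and at 55.6 and 24.1 (naive) and 49.7 and 42.9 (injured) in the knockout. Every wild-type injured value was above all 7 others, and the log2 fold change was 1.66 ± 0.37 (SE; adjusted p = 0.0553, limma). Over 19 alternative fits the adjusted p of Cdk1 ranged from 0.041 to 0.215 and was under 0.05 in 2, with a minimum value of 5 (0.041) and without knockout naive replicate 2 (0.0489). Ube2c, the ubiquitin-conjugating enzyme of the anaphase-promoting complex, stood at 37.3, 25.0 and 25.1 (naive) and 56.2, 28.7 and 155 (injured) in wild type and at 48.2 and 60.0 (naive) and 44.8 and 37.1 (injured) in the knockout. Replicate 3 of the wild-type injured group was the highest by far and replicate 2 lay within the naive range, with a log2 fold change of 1.12 ± 0.46 (SE; adjusted p = 0.302, limma). Ccnb1, cyclin B1, the partner of Cdk1, stood at 10.9, 16.49 and 7.07 (naive) and 20.3, 20.05 and 12.4 (injured) in wild type and at 9.79 and 6.28 (naive) and 15.5 and 11.0 (injured) in the knockout. The wild-type groups of Ccnb1 overlapped and the knockout groups did not, with log2 fold changes of 0.61 ± 0.41 (SE; adjusted p = 0.548, limma) and 0.67 ± 0.51 (SE; adjusted p = 0.975, limma). The remaining 6, Ccnb2 and Ccna2 (cyclins B2 and A2), Cdc20 (activator of the anaphase-promoting complex), Plk1 and Aurka (mitotic kinases) and Cdca3, had log2 fold changes between 0.17 for Ccna2 and 1.00 for Ccnb2, all with overlapping groups.

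The 9 genes of the centromere, checkpoint and passenger complex were the most mixed, with 5 above 0 and a median of 0.13, and 3 at an unadjusted p under 0.05. Birc5, survivin, a subunit of the passenger complex, stood at 14.1, 20.5 and 16.52 (naive) and 38.8, 31.1 and 78.5 (injured) in wild type and at 52.4 and 11.5 (naive) and 9.67 and 39.8 (injured) in the knockout. The wild-type groups did not overlap (log2 fold change 1.39 ± 0.57, SE; adjusted p = 0.309, limma), and the 2 replicates of each knockout group lay far apart. Bub1b, the checkpoint protein BubR1, stood at 4.79, 1.27 and 5.66 (naive) and 9.50, 9.32 and 13.1 (injured) in wild type and at 3.49 and 3.03 (naive) and 9.04 and 2.36 (injured) in the knockout. All 3 wild-type injured values of Bub1b were above the naive ones and alike, with a log2 fold change of 1.37 ± 0.59 (SE; adjusted p = 0.322, limma). Mad2l1, the checkpoint protein Mad2, stood at 13.9, 7.78 and 7.37 (naive) and 13.8, 20.8 and 37.8 (injured) in wild type and at 22.8 and 15.0 (naive) and 24.1 and 10.3 (injured) in the knockout. The wild-type ranges of Mad2l1 overlapped by 1 library each, with a log2 fold change of 1.17 ± 0.45 (SE; adjusted p = 0.278, limma). Cenpa, the centromeric histone, stood at 14.2, 17.2 and 15.9 (naive) and 13.0, 3.54 and 64.1 (injured) in wild type and at 15.9 and 15.3 (naive) and 0.91 and 18.2 (injured) in the knockout. Its injured libraries lay both far above and far below the naive ones, and the log2 fold change of -0.06 was above 0 in 3 of 19 alternative fits. The other 5 were Cdca8 at 0.54 and Aurkb at 0.13, both of the passenger complex, the kinetochore proteins Cenpf at -0.33 and Cenpe at -0.51, and Bub1 at -0.78 as log2 fold changes.

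The 5 chromosome and spindle proteins all had positive log2 fold changes in wild type, with a median of 0.93 and 1 at an unadjusted p under 0.05. Hmgb2, a chromatin protein of dividing cells, stood at 21.3, 24.6 and 28.8 (naive) and 57.2, 36.5 and 65.4 (injured) in wild type and at 36.5 and 21.3 (naive) and 17.7 and 43.7 (injured) in the knockout. Its wild-type groups did not overlap, with a log2 fold change of 1.03 ± 0.36 (SE; adjusted p = 0.238, limma), and the knockout injured pair lay on both sides of the knockout naive pair. Top2a, topoisomerase II alpha, which untangles chromosomes, stood at 12.1, 11.7 and 12.1 (naive) and 20.96, 15.6 and 21.6 (injured) in wild type and at 18.4 and 6.38 (naive) and 6.25 and 25.0 (injured) in the knockout. Its wild-type groups did not overlap either, with a smaller log2 fold change of 0.63 ± 0.49 (SE; adjusted p = 0.619, limma). Nusap1 and Tpx2, spindle proteins, had log2 fold changes of 1.25 and 0.14, and Mki67 had 0.93, with values of 1.28, 3.32 and 0.285 in naive and 4.61, 2.66 and 3.27 in injured libraries.

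**Figure D3:**
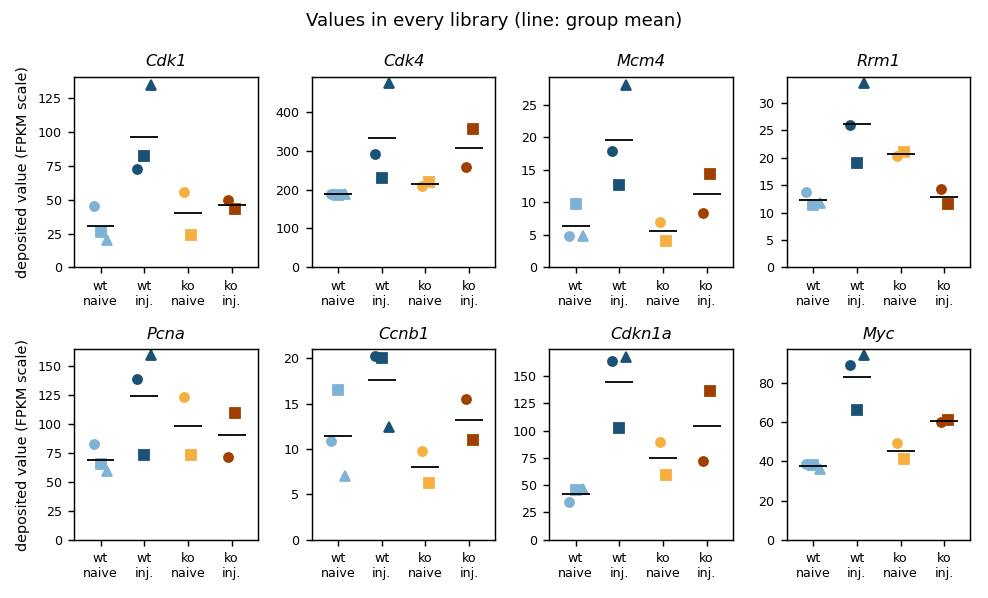
Deposited values (FPKM scale, vertical axes from 0) of 6 of the 44 genes and of Cdkn1a and Myc in each library, by group (wt, wild type; ko, knockout; inj., injured), with the group mean as a line; marker shape gives the replicate (circle 1, square 2, triangle 3). All wild-type injured values of Cdk1 lie above all other libraries, and Rrm1 is higher after injury in wild type and lower after injury in the knockout.

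The second comparison asked the same of knockout neurites, where the 44 genes showed no common direction. There 26 of 44 were above 0 with a median log2 fold change of 0.07, beside 6597 of 15712 and a median of -0.09 over all tested genes. By limma 0 of 44 had an adjusted p under 0.05, beside 0.0573% of all tested genes, and 0 had an unadjusted p under 0.05, beside 5.73%. Without overlap, 10 genes were higher and 6 lower, beside 13.5% of all tested genes higher and 22.1% lower. The median was 0.35 without knockout naive replicate 1, -0.23 without knockout naive replicate 2, 0.28 without knockout injured replicate 1 and -0.05 without knockout injured replicate 2, so its sign depended on single libraries. By role the medians were 0.34 for licensing, -0.56 for DNA synthesis, 0.04 for G1 and S, 0.03 for G2 and M, -0.21 for the centromere group and 0.16 for chromosome and spindle proteins. The 3 genes with the smallest p were E2f1, Cdk2 and Cdk4. E2f1 stood at 6.93 and 5.89 in naive and 1.13 and 3.85 in injured knockout libraries, and at 4.998, 3.52 and 4.48 and 3.63, 7.88 and 4.25 in wild type. It was lower after injury in the knockout without overlap, while its wild-type groups overlapped, with a log2 fold change of -1.20 ± 0.65 (SE; adjusted p = 0.932, limma). Cdk2 stood at 9.86 and 1.44 in naive and 13.8 and 15.4 in injured knockout libraries, and at 1.35, 6.33 and 2.41 and 7.86, 4.65 and 24.0 in wild type. The knockout injured pair of Cdk2 was above the naive pair, which itself differed widely, with a log2 fold change of 1.59 ± 0.86 (SE; adjusted p = 0.933, limma). Cdk4 was higher without overlap, with a log2 fold change of 0.50 ± 0.29 (SE; adjusted p = 0.933, limma).

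The genotypes were compared directly in naive and in injured neurites, comparisons that share their libraries with the 2 injury comparisons. In naive neurites 29 of 44 genes were above 0 (knockout minus wild type), with a median log2 fold change of 0.33 beside 0.06 over all tested genes. By limma 0 of 44 passed, beside 0.146% of all tested genes, and 2 were higher at an unadjusted p under 0.05, beside 2.7% of all tested genes higher. Without overlap, 9 genes were higher and 1 lower in the knockout, beside 14.1% of all tested genes higher and 8.51% lower. The median was -0.04 without the library labelled knockout naive replicate 1, whose Cpeb1 value lay within the wild-type naive range, and 0.60 without knockout naive replicate 2. The 5 genes of DNA synthesis were all above 0, with a median of 0.71. Tk1 stood at 3.43, 5.81 and 1.07 in wild-type naive and 22.8 and 18.4 in knockout naive libraries, and at 14.5, 9.49 and 0.099 in wild-type injured and 8.06 and 10.7 in knockout injured libraries. Its naive genotypes did not overlap, with a log2 fold change of 2.44 ± 0.94 (SE; adjusted p = 1, limma). A processed pseudogene with a near-identical stretch, Gm6091, was also counted and could share its reads. Tyms stood at 3.00, 4.68 and 8.44 in wild-type naive and 16.9 and 12.6 in knockout naive libraries, and at 8.77, 7.74 and 17.2 in wild-type injured and 4.71 and 18.5 in knockout injured libraries. It too was higher in the naive knockout without overlap, with a log2 fold change of 1.38 ± 0.61 (SE; adjusted p = 1, limma), and Rrm1 had 0.71 ± 0.36 (SE; adjusted p = 1, limma).

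In injured neurites 10 of 44 genes were above 0 (knockout minus wild type), with a median log2 fold change of -0.39 beside -0.05 over all tested genes. By limma 0 of 44 passed, beside 0.261% of all tested genes, and at an unadjusted p under 0.05 Rrm1 and Cdk1 were lower, beside 5.95% of all tested genes. Without overlap, 1 gene (Gmnn) was higher and 4 (Rrm1, Ccnd1, Cdk1 and Bub1b) lower, beside 9.72% of all tested genes higher and 12.2% lower. Rrm1 had a log2 fold change of -0.94 ± 0.36 (SE; adjusted p = 0.383, limma), Cdk1 of -0.997 ± 0.41 (SE; adjusted p = 0.421, limma) and Hmgb2 of -0.86 ± 0.41 (SE; adjusted p = 0.485, limma). The median was -0.10 with 20 genes above 0 when wild-type injured replicate 3 was left out, -0.12 with 19 above 0 without knockout injured replicate 1, and -0.61 with 7 above 0 without wild-type injured replicate 2.

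The interaction (knockout injury effect with the wild-type one subtracted) tests whether the genotypes responded differently. Of the 44 genes 8 were above 0, with a median of -0.65. By limma 0 of 44 and 0% of all tested genes passed, while Rrm1 and Cdk1, both below 0, and 979 of all tested genes (6.23%) had an unadjusted p under 0.05. The median of all tested genes was itself -0.13, and median-ratio scaling moved it to 0.003 and that of the 44 genes to -0.48. Relative to all tested genes the 44 thus stood at -0.52 as deposited and -0.48 after that scaling. The median was -0.37 without wild-type injured replicate 3 and -1.13 without knockout naive replicate 2. Rrm1 had an interaction of -1.65 ± 0.51 (SE; adjusted p = 0.791, limma), Cdk1 of -1.34 ± 0.58 (SE; adjusted p = 0.791, limma) and Ube2c of -1.51 ± 0.72 (SE; adjusted p = 0.801, limma). No difference between the injury responses of the genotypes was therefore shown for any of the 44 genes.

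Of 141 further cell cycle genes 138 were tested, and Cdkn2a, E2f2 and Kif14 had too low values. In wild type 2 passed after injury, both higher, beside 0.948% of all tested genes, and 100 of 138 were above 0 with a median log2 fold change of 0.36. At an unadjusted p under 0.05 16 were higher and 2 lower, together 13% of the 138 beside 13.9% of all tested genes. In the knockout 0 passed by limma, 7 had an unadjusted p under 0.05 (5 higher, 2 lower, together 5.07% beside 5.73% of all tested genes) and 79 of 138 were above 0, with a median of 0.08. Cdkn1a, the kinase inhibitor p21 that blocks the cycle in G1, stood at 34.7, 45.5 and 46.3 (naive) and 164, 103 and 168 (injured) in wild type and at 89.7 and 59.5 (naive) and 72.5 and 136 (injured) in the knockout. It rose after injury in wild type by a log2 fold change of 1.73 ± 0.29 (SE; adjusted p = 0.0154, limma), against 0.44 ± 0.35 (SE; adjusted p = 0.975, limma) in the knockout. The call was kept in 13 of 19 alternative fits, with adjusted p between 0.0101 and 0.105, and lost with no filter, with no mean-variance trend, and when wild-type injured replicate 1 or 1 of the 3 wild-type naive libraries was left out. Myc, a transcription factor that promotes growth and S phase entry, stood at 38.6, 38.3 and 35.95 (naive) and 89.4, 66.2 and 94.3 (injured) in wild type and at 49.5 and 41.2 (naive) and 60.4 and 61.0 (injured) in the knockout. Myc rose after injury in wild type by 1.11 ± 0.22 on the log2 scale (SE; adjusted p = 0.0353, limma), a call kept in 7 of 19 alternative fits, with adjusted p between 0.0177 and 0.154, and lost with no filter, with no mean-variance trend, with only the groups compared, and when any library but wild-type injured replicate 2 was left out. The interaction of neither gene passed (adjusted p = 0.791 for Cdkn1a and 0.804 for Myc, limma).

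By list, the 7 CDK inhibitors had a median wild-type injury log2 fold change of 0.88, the 19 Rb, E2F and DREAM genes 0.10, the 39 replication genes 0.23, the 25 remaining cyclins, kinases and ligases 0.29, and the 48 kinetochore, spindle and cytokinesis genes 0.48. The smallest p of the last 3 lists belonged to Rpa2 (single-stranded DNA binding, 1.21 ± 0.42, SE; adjusted p = 0.231, limma), Ccng1 (cyclin G1, 1.38 ± 0.33, SE; adjusted p = 0.0775, limma) and Ckap2 (a spindle protein, 1.76 ± 0.51, SE; adjusted p = 0.155, limma). In the knockout the smallest p in the 5 lists, in the same order, belonged to Cdkn2b (-2.37), E2f5 (1.33), Rfc2 (0.90), Chek1 (1.90) and Cenpn (2.15) as log2 fold changes, none passing the test.

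Radial glia and astrocyte markers varied among libraries much as the cell cycle genes did, while oligodendrocyte precursor and intermediate progenitor markers had another order. Relative to the wild-type naive mean, the median of the 44 genes was 0.84, 0.49 and 1.35 in wild-type injured replicates 1 to 3, 0.60 and -0.04 in the knockout naive and 0.23 and 0.62 in the knockout injured libraries on the log2 scale. The median of 14 radial glia markers was 0.50, 0.50 and 1.16, then 0.47 and -0.03, then 0.31 and 0.43 in the same libraries. The median of 12 astrocyte markers was 0.63, 0.56 and 1.49, then 0.33 and 0.21, then 0.18 and 0.59. In all 3 lists wild-type injured replicate 3 was the highest library, and in all 3 knockout naive replicate 1 exceeded replicate 2. Both were also true of the CDK inhibitors and of the kinetochore, spindle and cytokinesis genes. This order was therefore not particular to radial glia and astrocyte markers. The other lists of further cell cycle genes were highest in other libraries. The median of 6 oligodendrocyte precursor markers was 0.51, -0.49 and 0.33 in wild-type injured replicates 1 to 3, with 3 of the 6 above 0 after injury. That of the 3 tested intermediate progenitor markers (Insm1, Btg2 and Gadd45g) was 2.28, 1.65 and 1.08, with replicate 3 the lowest. The summed value of the radial glia list was 2438 to 2995 (naive) and 2746 to 5163 (injured) in wild type and 3312 to 4419.9 (naive) and 3995 to 4076 (injured) in the knockout. That of the astrocyte list was 1255 to 1758 (naive) and 2052 to 4406 (injured) in wild type and 1729 to 2118 (naive) and 1843 to 2157 (injured) in the knockout. Fabp7 made up most of the radial glia sum in every library. Its log2 fold change after injury in wild type was 0.31. After injury in wild type 12 of 14 radial glia and 11 of 12 astrocyte markers were above 0, beside 51% of all tested genes. The radial glia log2 fold changes ran from -0.08 for Pax6 to 1.88 for Vim. Slc1a3 is in both lists. In each list 1 gene passed, beside 0.948% of all tested genes, Vim (vimentin, 1.88 ± 0.39, SE; adjusted p = 0.0435, limma) and Sox9 (a glial transcription factor, 1.87 ± 0.30, SE; adjusted p = 0.0141, limma). The call of Vim was kept in 9 of 19 alternative fits and that of Sox9 in 16.

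**Figure D4:**
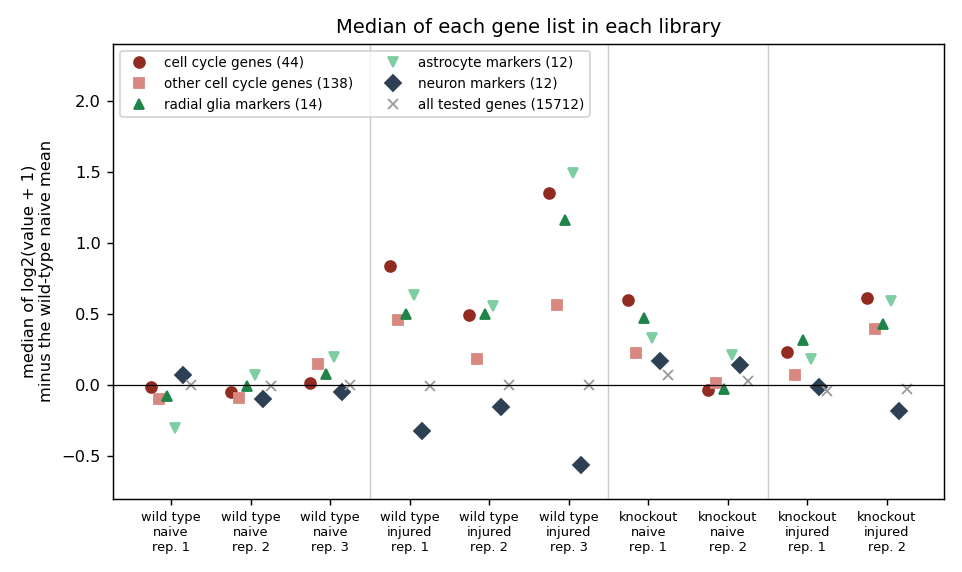
Median over each gene list of log2(value + 1) minus the wild-type naive mean, in each library, for the 44 cell cycle genes, 138 other cell cycle genes, 14 radial glia, 12 astrocyte and 12 neuron markers and all 15712 tested genes. In wild-type injured replicate 3 the cell cycle genes stand at 1.35, the radial glia markers at 1.16, the astrocyte markers at 1.49 and the neuron markers at -0.57.

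The median of the 12 neuron markers was -0.32, -0.16 and -0.57 in the wild-type injured and 0.17 and 0.14 in the knockout naive libraries. After injury in wild type 8 of the 12 were below 0 and 4 above, 0 passed by limma, and at an unadjusted p under 0.05 5 were lower and 2 higher (the neurofilament genes Nefl at 0.86 and Nefm at 1.86 as log2 fold changes). Of all tested genes 6.24% were lower and 7.66% higher at that unadjusted threshold. The sum of the 12 neuron markers was 4127 to 4589 (naive) and 2816 to 3735 (injured) in wild type and 4799.6 to 5235 (naive) and 3698 to 4766 (injured) in the knockout. RNAs retained in the nucleus, 6 genes led by Malat1, summed to 2691 to 4100.0 (naive) and 6025 to 7231 (injured) in wild type and 2253 to 3146 (naive) and 1750.3 to 2929 (injured) in the knockout, a sum made up mostly of Malat1. Malat1 rose after injury in wild type (log2 fold change 1.23 ± 0.26, SE; adjusted p = 0.0455, limma), a call kept in 6 of 19 alternative fits, with adjusted p between 0.0133 and 0.251, and lost with a pseudocount of 0.1, no filter, either other scaling or no mean-variance trend, and when any library but a knockout injured one was left out. Only Malat1 and Neat1 of the 6 were above 0 after injury in wild type, the median was -0.19 and the lowest was Snhg11 at -2.07. In injured neurites Malat1 also passed by limma as lower in the knockout than in wild type (log2 fold change -1.79). Of all tested genes 0.261% passed in that comparison. The call was kept in 13 of 19 alternative fits, with adjusted p between 0.00232 and 0.302 (limma). The sums of 10 microglia markers, with Cx3cr1, C1qc and Tmem119 at 0 in all libraries, were 0.293 to 6.03 (naive) and 0.517 to 9.695 (injured) in wild type and 30.6 to 35.5 (naive) and 0.658 to 33.1 (injured) in the knockout. The sums of 8 endothelial and mural markers, with Cdh5 at 0 in all libraries, reached 10.02 to 19.2 in knockout naive and 6.10 to 10.9 in wild-type injured libraries. The sums of 8 fibroblast markers, with Lum at 0 in all libraries, were 22.7 to 28.6 in wild-type naive and 8.81 to 34.7 in wild-type injured libraries. The 6 oligodendrocyte precursor markers summed to 148 to 169.5 in wild-type naive and 152 to 386 in wild-type injured libraries. Of 6 intermediate progenitor markers Neurog1 was at 0 in all libraries and Eomes at 0 in all but 2, and the sum was 13.4 to 26.8 in wild-type naive and 243 to 465 in wild-type injured libraries, where Gadd45g, also a stress response gene, made up most of it. The part of glial, progenitor or nuclear RNA in the values of the 44 genes was not tested.

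The promoters of 3 of these genes are shown because they hold the elements by which S phase and mitotic genes are usually told apart. Windows run from 250 bases before to 50 bases after the annotated start (RefSeq, GRCm38.p6), are written 5' to 3' along the gene, and carry in capitals each match on either strand to the E2F element (TTTCCCGC, TTTGGCGC, TTTCGCGC or TTTGCCGC), the CHR or cell cycle homology region (TTTGAA) and the CCAAT box (CCAAT). Mcm5 (chr8:75109259-75109558, plus strand) holds E2F matches and no CHR match, Cdc20 (chr4:118437294-118437593, minus strand) a CHR match and no E2F match, and Cdk1 (chr10:69352863-69353162, minus strand) both.
Mcm5: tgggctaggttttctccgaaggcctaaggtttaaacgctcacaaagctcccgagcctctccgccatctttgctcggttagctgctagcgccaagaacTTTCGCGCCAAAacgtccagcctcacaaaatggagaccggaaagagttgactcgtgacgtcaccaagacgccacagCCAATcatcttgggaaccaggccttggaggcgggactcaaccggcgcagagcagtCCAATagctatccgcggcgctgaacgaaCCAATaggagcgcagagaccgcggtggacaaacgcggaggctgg
Cdk1: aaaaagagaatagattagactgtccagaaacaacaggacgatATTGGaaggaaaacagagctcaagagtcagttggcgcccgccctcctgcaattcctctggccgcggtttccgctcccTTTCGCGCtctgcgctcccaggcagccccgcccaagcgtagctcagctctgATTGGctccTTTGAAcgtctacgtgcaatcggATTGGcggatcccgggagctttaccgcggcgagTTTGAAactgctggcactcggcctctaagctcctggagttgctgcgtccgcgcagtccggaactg
Cdc20: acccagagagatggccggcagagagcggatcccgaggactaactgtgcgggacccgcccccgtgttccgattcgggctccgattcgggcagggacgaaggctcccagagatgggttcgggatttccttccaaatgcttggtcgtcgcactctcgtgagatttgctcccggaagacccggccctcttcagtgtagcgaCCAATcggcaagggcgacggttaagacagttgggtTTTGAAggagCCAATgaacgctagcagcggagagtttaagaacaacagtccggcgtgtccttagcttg

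Of the 44 genes 36 had such a window, and Mcm4, Gmnn, Ccnd1, Ccnd2, Ccne2, Ccna2, Aurkb and Tpx2 had no entry. A CHR match lay in 15 of the 36 (41.7%, against 20.2% of 27025 genes with a window), a CCAAT match in 26 (72.2% against 41.1%), both in 15 (41.7% against 7.97%) and an E2F match in 8 (22.2% against 2.6%). Matches to different elements overlapped in the windows of Mcm7 and Cdca8 and were counted for both elements. E2F matches lay in 6 of the 7 licensing genes with a window, in Cdk2 and in Cdk1. None of the 5 DNA synthesis genes had one in its window, nor did Cdk4, Ccne1 or E2f1. The windows of E2f1, Cdc6, Cdca3 and Cdca8 lay wholly inside the annotated gene span. Sequence upstream of those 4 spans, including that of E2f1, was therefore not searched. CHR matches lay in 7 of 8 G2 and M phase regulators, 4 of 8 genes of the centromere group, 3 of 4 chromosome and spindle proteins and 1 licensing gene. The 8 genes with an E2F match had a median wild-type injury log2 fold change of 1.2 and the 28 without had 0.76. Of the 8 with a match 6 are licensing genes, so this split largely follows role. The 15 genes with a CHR match had a median of 0.91 and the 21 without had 0.89. A match is a description of the letters and does not show a bound site.

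**Figure D5:**
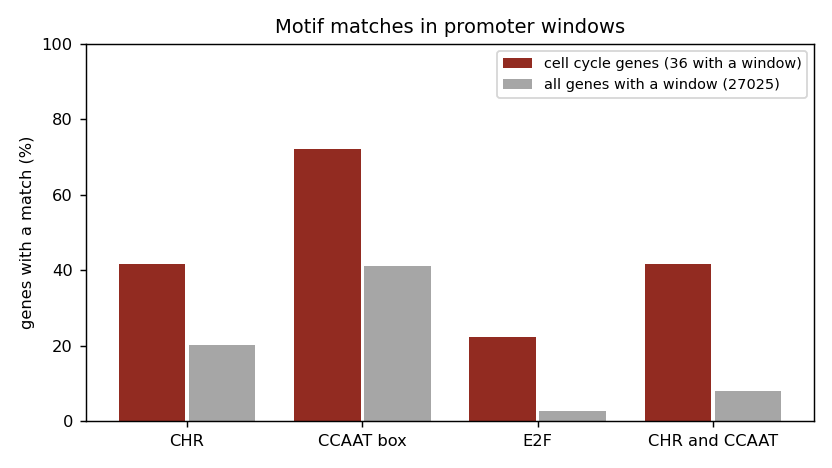
Percent of genes whose promoter window of 300 bases holds a match to the CHR, the CCAAT box, an E2F element, or both CHR and CCAAT, for the 36 cell cycle genes with a window and for all 27025 genes. The bars of the cell cycle genes stand at 41.7%, 72.2%, 22.2% and 41.7%, and those of all genes at 20.2%, 41.1%, 2.6% and 7.97%.

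Since Cpeb1 acts through the cytoplasmic polyadenylation element, TTTTAT or TTTTAAT as DNA, the longest annotated 3' untranslated region of each gene (GENCODE M21, mm10) was searched for it on the transcribed strand. It was found in 32 of the 44 genes (72.7%, against 62.9% of tested genes with such a region), and within 100 bases of a polyadenylation signal in 10 (22.7% against 17.8%). The signal (AATAAA or ATTAAA) was sought only in the last 50 bases of the region. Signals further upstream were not considered. Mad2l1 held 12 elements, Ccna2 8, Hmgb2 6 and Ccnb1 and Ccne2 4 each. No element of Ccnb1 lay within 100 bases of a signal in those last 50 bases. The sites of Ccnb1 are shown because cyclin B1 is the known frog target, and that of Mcm7 because its element lies just before the signal aataaa; the element is in capitals.
Ccnb1 site 1: aagtatctttTTTTATgtaattatttat
Ccnb1 site 2: aaggagatatTTTTATatgggttcattt
Ccnb1 site 3: tatgggttcaTTTTATcaacagtattcc
Ccnb1 site 4: tcatttgctgTTTTAATttatacatctg
Mcm7 site: tgctgcacttTTTTATtctgccaataaa

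The 32 genes with an element and the 12 without had similar medians in most comparisons, and their 3' untranslated regions differed in length, with medians of 971 and 471 nt. The medians of the log2 fold changes were 0.74 with and 0.84 without an element for injury in wild type, 0.07 and 0.11 for injury in the knockout, 0.35 and 0.09 for genotype in naive, and -0.43 and -0.37 for genotype in injured neurites. Ccnb1, with its 4 elements, had log2 fold changes between the genotypes of -0.42 ± 0.46 (SE; adjusted p = 1, limma) in naive and -0.37 ± 0.46 (SE; adjusted p = 0.802, limma) in injured neurites. Neither differed beyond the spread between replicates. Total RNA levels as measured here do not report poly(A) tail length or translation.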

How the data were processed

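Neurite RNA was sequenced with Smart-seq2, which is not stranded and carries no molecular identifiers, from 1 ng of RNA with 14 and 11 cycles of amplification, per the labels' protocols. The submitters' processing notes name STAR 2.4.2a, RSEM 1.2.21 and mm10, with no role stated. The deposited values (45195 Ensembl IDs, 10 libraries) were read as FPKM, each library divided by the authors by a factor of its own, which no note states. This rests on the values, at least 99.9956% of which lay on whole steps of 0.01 divided by such a factor (within 0.00051). From the values alone FPKM cannot be told apart from TPM with genes left out. No counting interval can be given without counts.

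Names, coordinates and 3' untranslated regions came from GENCODE M21 (44548 IDs matched), promoters from RefSeq. Groups came from the labels. Differences were tested with limma 3.58.1 under R 4.3.3, from log2(value + 1). A single fit of all 10 libraries held 4 group means, used eBayes with its trend option and covered the 15712 genes that reached 1 in 2 or more libraries. There were 6 residual and 6.8 prior degrees of freedom. Benjamini-Hochberg adjustment of p-values ran over all tested genes within a comparison, with a threshold of 0.05. Fold changes on this scale understate those of low genes. Alternatives were other pseudocounts, filters, scalings and variance models, fits of only the groups compared, the replicate number as a block, and leaving out each library.

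The 44 genes, the lists and the markers were chosen with earlier results of these data known. Values in every library are given for genes with an unadjusted p under 0.05 after injury in wild type, the 3 smallest p of each other comparison, the 2 highest means of each role, and Ccnb1. Library values of other genes were picked once the data were known. Copies were sought with blastn 2.17.0 (at least 95% identity over 150 nt and 50% of the shorter transcript) and exon overlaps with bedtools 2.31.1. Figures were drawn with matplotlib 3.10.9. The fit was tested on simulated data.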

Additional observations from a re-analysis of the deposited data

Results flagged for a closer look

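Rrm1 was the only one of the 44 genes in which every library of the injured group lay on opposite sides of the naive group in the 2 genotypes: above it in wild type (13.8, 11.4 and 11.8 against 26.0, 19.0 and 33.6) and below it in the knockout (20.4 and 21.1 against 14.3 and 11.6). Of all tested genes, 9.78% were higher after injury without overlap in wild type and 22.1% lower in the knockout. For the reverse order the shares were 8.02% and 13.5%. How many genes had opposite orders in the 2 genotypes was not counted, so Rrm1 is not shown to stand out. The interaction of Rrm1 was -1.65 on the log2 scale and did not pass over all tested genes (adjusted p = 0.791, limma).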

How the results depend on the processing

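Of the 32 genes followed by name through the alternatives, none that passed changed its direction under any of those run. None of the 44 genes passed in the main fit, and some of them changed sign in comparisons they did not pass. Bub1b for genotype in naive and Tyms for genotype in injured neurites did so in 4 of 19 alternatives each. Others, such as Cdk1 for injury in wild type, kept their sign in all 19. The count of genes passing after injury in wild type, 149, was 25 with no filter, 77 with no mean-variance trend and 90 with only the groups compared, and 35 to 311 with 1 library left out. After injury in the knockout the count of 9 was 1 with a pseudocount of 0.1, 33 with no filter, 4 with quantile normalization, 1 with no mean-variance trend, 0 with only the groups compared and 5 with the replicate block, and 0 to 20 with 1 library left out. For genotype the count of 23 in naive neurites was 52 with no filter and 17 to 27 with 1 library left out, and that of 41 in injured neurites was 24 to 57. The interaction count of 0 was 13 with no filter, 3 with no mean-variance trend and 0 to 2 with 1 library left out. Of the 44 genes, 1 (Cdk1) passed after injury in wild type with a minimum value of 5, which leaves fewer genes tested, and 0 to 1 with 1 library left out. With 1 library left out, the median of the 44 genes was 0.52 to 1.06 for injury in wild type, -0.23 to 0.35 for injury in the knockout, -0.04 to 0.60 and -0.61 to -0.10 for genotype in naive and injured neurites, and -1.13 to -0.37 for the interaction. The causes were not tested. No pairing by replicate number was seen, as deviations of same-numbered libraries from their group means correlated between -0.05 and 0.04. In groups of 2 libraries these deviations mirror each other, and the labels do not say what the numbers mean, so pairing is not excluded. With the replicate block 17 of the 44 genes were higher after injury in wild type at an unadjusted p under 0.05 (38.6%, beside 14.3% of all tested genes in either direction) and 0 passed. Groups of 2 and 3 libraries limit all tests, and 10 of the 44 genes have near-identical copies and 11 share exon bases with a gene on the opposite strand, so their values may hold reads of other genes.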
